A study of Mus musculus with 36 samples.

Results

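Transcripts of 10 genes of mouse mitochondrial DNA (mtDNA) were followed in C2C12 myotubes, the multinucleate muscle cells that a mouse myoblast line forms in differentiation medium. The genes were chosen by name from the table of counts per gene, and all 10 were found among its 55416 genes and passed the filter on low counts that left 13995 genes to test. They are the 2 ribosomal RNAs (rRNAs) *mt-Rnr1* and *mt-Rnr2* and 8 of the 13 mtDNA protein genes, *mt-Nd1*, *mt-Nd4*, *mt-Nd5*, *mt-Co1*, *mt-Co2*, *mt-Co3*, *mt-Cytb* and *mt-Atp6*. All myotubes had been transfected on day 3 of differentiation with an antisense locked nucleic acid (LNA), which was either a negative control (control) or directed against the long non-coding RNA *Tug1* (*Tug1* KD), and were used on day 4. Each LNA was studied in 3 conditions: unstimulated with electrodes in the medium (Rest), directly after 3 h of electrical pulse stimulation that makes the cells contract (EPS 0h), and after the same stimulation with 3 h of recovery (EPS 3h). The 6 groups held 6 libraries each, 1 well per library and 36 in all. Each LNA had 1 Rest group, with electrodes in the medium for as long as the stimulation, and no Rest wells with recovery time are described. At EPS 3h, recovery after EPS and the longer time in culture since transfection therefore cannot be told apart against Rest. The cells are a single line in culture, and the LNA against *Tug1* had 1 sequence.

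Mammalian mtDNA is a small circle that is transcribed from both strands into long precursors, which are cut at the tRNAs that lie between most genes. The 2 rRNAs form the core of the mitochondrial ribosome, and all mtDNA proteins are subunits of the respiratory chain or of ATP synthase, which muscle depends on for sustained work. Most of the mRNAs and both rRNAs carry A tails, long on the mRNAs and short on the rRNAs, and some mRNAs gain the end of their stop codon only through the tail.

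In the GRCm39 assembly, all 10 genes lie on the plus strand of the mtDNA as annotated by GENCODE. *mt-Rnr1* (chrM:70-1024), the RNA of the small ribosomal subunit, and *mt-Rnr2* (chrM:1094-2675), that of the large subunit, come first and are followed by *mt-Nd1* (chrM:2751-3707). The cytochrome c oxidase subunits *mt-Co1* (chrM:5328-6872), *mt-Co2* (chrM:7013-7696) and *mt-Co3* (chrM:8607-9390) and the ATP synthase subunit *mt-Atp6* (chrM:7927-8607) lie in the middle. The complex I subunits *mt-Nd4* (chrM:10167-11544) and *mt-Nd5* (chrM:11742-13565) and cytochrome b of complex III, *mt-Cytb* (chrM:14145-15288), lie toward the end. None of the 10 has an intron. *mt-Nd1* overlaps the tRNA *mt-Ti*, *mt-Atp6* overlaps *mt-Atp8* and *mt-Co3*, and *mt-Nd4* overlaps *mt-Nd4l*. On the other strand, *mt-Co1* overlaps the tRNA *mt-Ts1* and *mt-Nd5* overlaps *mt-Nd6*. Counts near those ends depend on how reads were assigned, which the sources used here do not state.

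Because the RNA was selected by its A tails, the last 30 bases of genes as annotated are shown. Where the tails begin was not read here. The annotated end of *mt-Nd1* (chrM:3707) lies past the start of the tRNA *mt-Ti* (chrM:3706), so a cut there would fall within the stop codon. The ends of both rRNAs are shown with those of *mt-Nd1*, the mRNA that changed most, and of *mt-Nd4*, *mt-Co3* and *mt-Cytb*, whose annotated ends stop 1 base after the last whole codon. Capitals mark the stop codon or its first base.
mt-Rnr1: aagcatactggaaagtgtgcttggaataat
mt-Rnr2: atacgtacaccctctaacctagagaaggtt
mt-Nd1: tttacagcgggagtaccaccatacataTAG
mt-Nd4: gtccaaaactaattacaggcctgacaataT
mt-Co3: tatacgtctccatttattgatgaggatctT
mt-Cytb: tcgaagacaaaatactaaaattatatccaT
As annotated, the other 4 mRNAs, *mt-Co1*, *mt-Co2*, *mt-Atp6* and *mt-Nd5*, end in a whole stop codon.

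Part of the mtDNA also stands in the nuclear genome. A stretch of chromosome 1 (chr1:24650616-24655269, minus strand, GRCm39) holds 4654 bases that are 99.936% identical to mtDNA positions 6390 to 11042, from the end of *mt-Co1* into *mt-Nd4*. The copy departs from the reference mtDNA at 3 places, the substitutions A6393T in *mt-Co1* and T9461C in *mt-Nd3* (the mtDNA base first, its mtDNA position, then the base of the copy read on the same strand) and 1 inserted A at position 9820 in *mt-Tr*. The site at 9461 shows how alike they are, with the differing base in capitals (chrM:9447-9476 and chr1:24652183-24652212, minus strand).
mtDNA: cagaagagagtaatTaacctgtacactgtt
copy: cagaagagagtaatCaacctgtacactgtt
The assembly comes from another mouse strain than the C2C12 line, and the mtDNA of these cells was not read here.

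Every stretch of 150 bases, the length of 1 read, was looked up in the nuclear chromosomes. In *mt-Rnr1*, *mt-Rnr2*, *mt-Nd1*, *mt-Nd5* and *mt-Cytb*, 100% of the stretches had no exact nuclear copy. The share was 76.36% in *mt-Co1* and 40.85% in *mt-Nd4*, and it was 0% in *mt-Co2*, *mt-Co3* and *mt-Atp6*. The last 3 had between 22 and 167 counts per library, against 65657 to 228646 for *mt-Co1* and 4967 to 97813 for the other 6. The counts of *mt-Co2*, *mt-Co3* and *mt-Atp6* are therefore few, and how far they stand for mtDNA transcripts was not tested. Annotated genes of the nuclear copy had counts of the same order, between 247 and 959 per library for the 7 on chromosome 1 together (median 524.5), against 106 to 379 for these 3 members together (median 214).

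**Figure D1:**
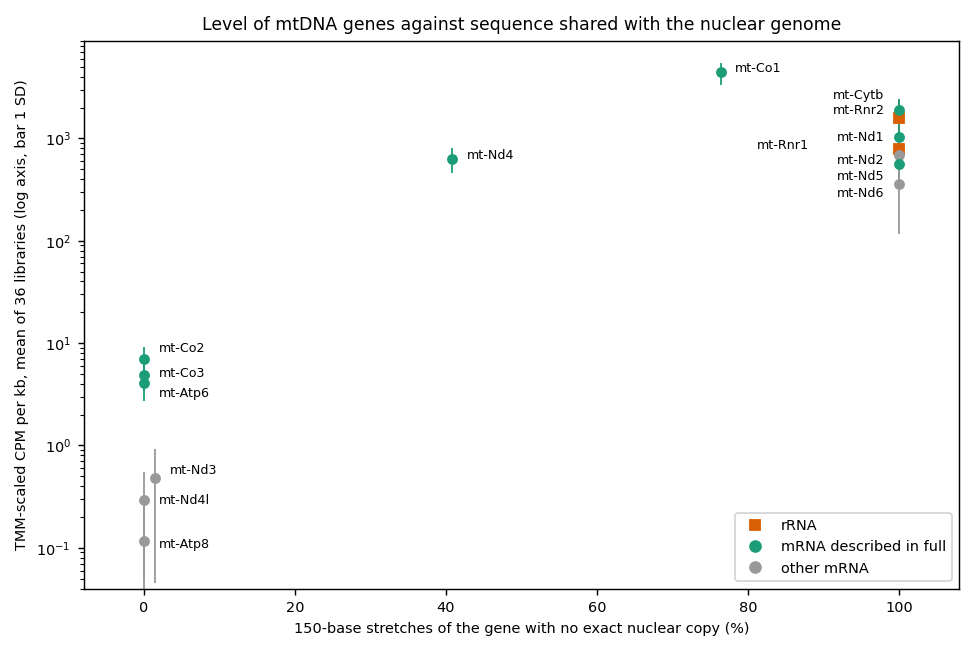
Level of the mtDNA protein genes and rRNAs (TMM-scaled CPM per kilobase, mean of 36 libraries with 1 SD, log axis) against the share of their 150-base stretches with no exact copy in the nuclear chromosomes. The 6 genes with at most 1.51% of such stretches lie at 6.96 CPM per kilobase or less, and those with at least 40.85% lie at 357 or more.

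Depth was between 17005079 and 24181167 counts on genes per library. *Tug1* was checked first. It was 48.3 ± 6.77 CPM in Rest control and 27.2 ± 3.68 in Rest *Tug1* KD myotubes (SD, n = 6 libraries each), without overlap between the groups, and its log2 fold change was -0.83 at Rest, -0.57 at EPS 0h and -0.51 at EPS 3h (edgeR FDR 0.000915, 0.0178 and 0.0414), with overlapping libraries at both EPS time points. All 10 myotube markers were expressed in every library (*Acta1* 2600 to 4777 CPM), and 4 of 6 fibroblast and adipocyte markers, *Thy1*, *Adipoq*, *Fabp4* and *Plin1*, were at most 1.66 CPM. *Pdgfra* and *Col1a1* of the same list were present in every library, at 3.27 to 22.7 and 220 to 466 CPM. The 6 markers of myoblasts and cycling cells summed to 136 to 176 CPM in Rest control and 174 to 210 in EPS 0h control libraries. The fibroblast and adipocyte list, mostly *Col1a1*, summed to 391 to 463 and 242 to 319, and the part of either list in the results was not tested. The study pooled 2 independent experiments of 3 wells, and the labels do not name the experiment of a replicate number. Replicates 1 to 3 and 4 to 6 are therefore also shown apart as 2 sets. p-values measure the spread between these wells of 1 cell line. Fewer mitochondria or cells and less RNA in each cannot be told apart in such libraries, and neither can the amount of a transcript and the share of it that carries a tail.

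Levels below are CPM, the counts of a gene relative to the total of its library after scaling by TMM factors. The 10 genes together held between 0.759% and 2.24% of the counts of a library. The mean share was 1.43% in Rest control, 1.85% in EPS 0h control and 1.33% in EPS 3h control myotubes, and 1.60%, 1.62% and 1.27% in the same order with *Tug1* KD. Per kilobase of gene, *mt-Co1* was the highest in 36 of 36 libraries, at 4421 ± 1076 CPM per kilobase (SD over 36 libraries). *mt-Cytb* (1894 ± 520) and *mt-Rnr2* (1586 ± 835) came next, and *mt-Cytb* was the higher of the pair in only 21 libraries. *mt-Nd1* (1030 ± 462), *mt-Rnr1* (782 ± 376), *mt-Nd4* (631 ± 173) and *mt-Nd5* (561 ± 238) followed. Neighbours among them kept that order in 20 to 26 of the 36 libraries, while *mt-Nd1* exceeded *mt-Nd4* in 33 and *mt-Nd5* in 36. The order also differed between groups. In Rest control, *mt-Nd1* stood at 1290 ± 367 and *mt-Rnr1* at 431 ± 121 CPM per kilobase (SD, n = 6). In EPS 3h control they stood at 626 ± 176 and 1084 ± 345. *mt-Cytb* and *mt-Rnr2* likewise went from 1913 and 829 in Rest control to 1420 and 1758 in EPS 3h control. *mt-Rnr2* exceeded *mt-Rnr1* per kilobase in every library. *mt-Co2* (6.96 ± 2.30), *mt-Co3* (4.91 ± 1.48) and *mt-Atp6* (4.09 ± 1.39) were below all others in 36 of 36 libraries. Levels were divided by the whole gene length. Stretches of 150 bases without an exact nuclear copy made up 40.85% of *mt-Nd4*, 76.36% of *mt-Co1* and 0% of *mt-Co2*, *mt-Co3* and *mt-Atp6*. How far the shared stretches affected the order was not tested.

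**Figure D2:**
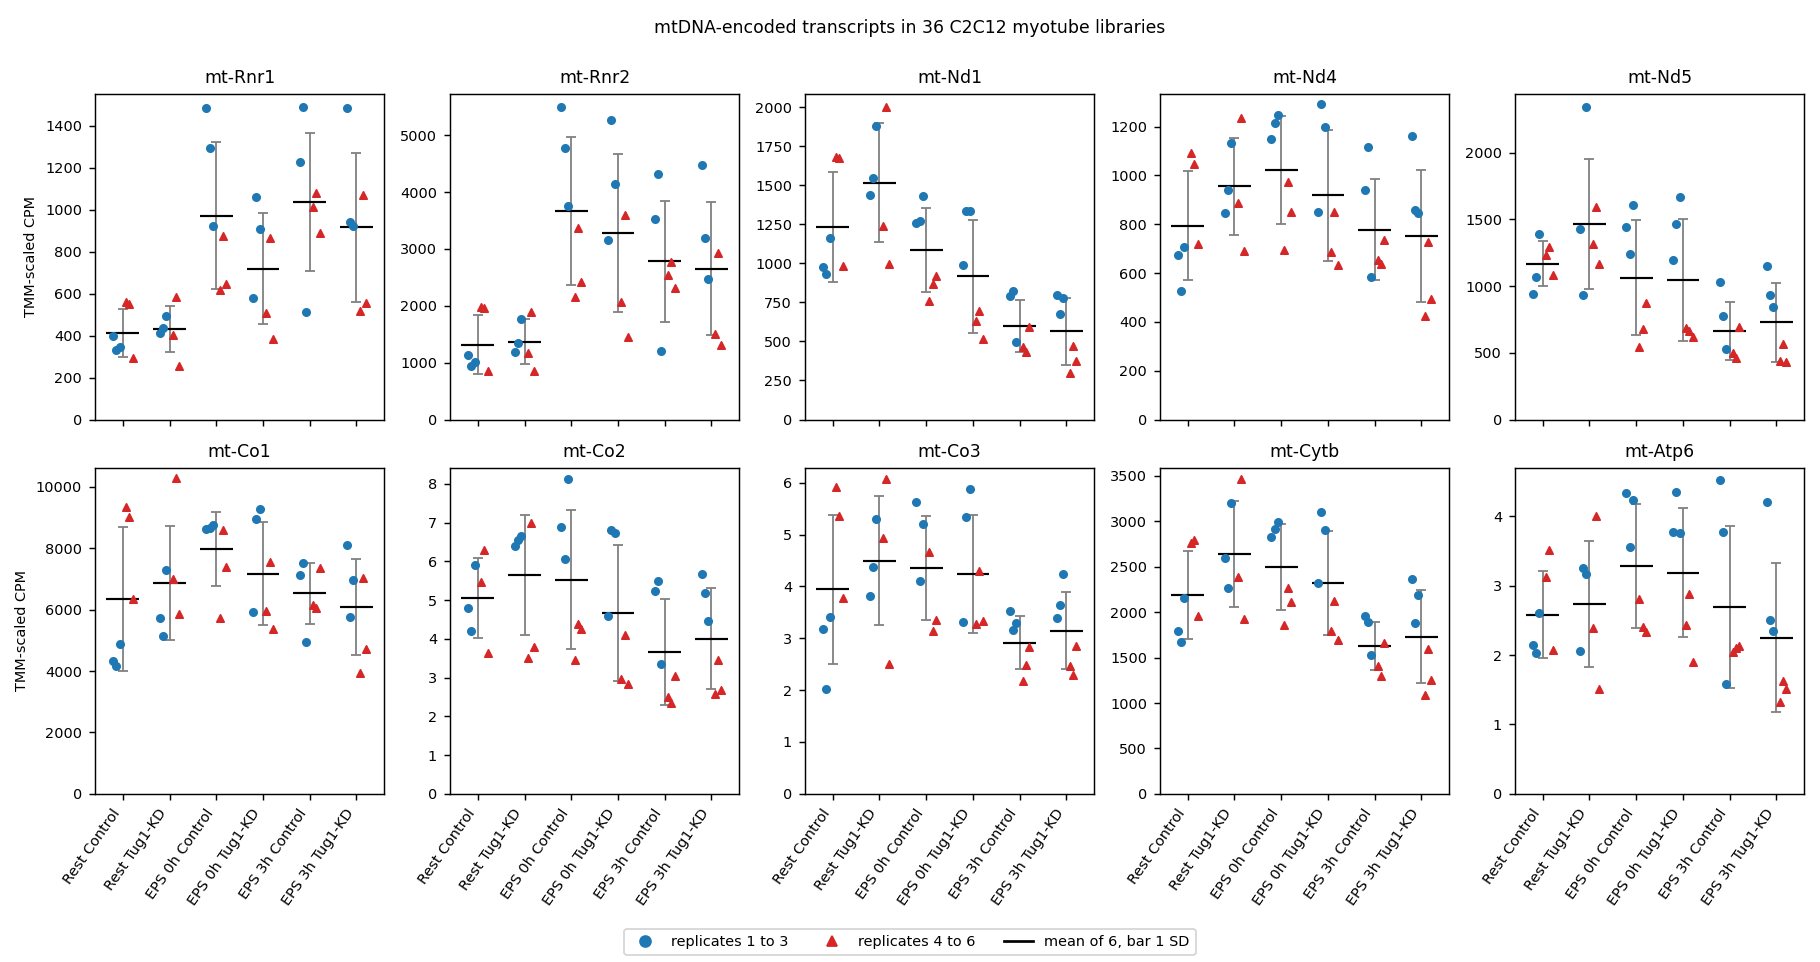
TMM-scaled CPM of the 10 genes in every library by group, on a linear axis from 0 for each gene, with replicates 1 to 3 (circles) and 4 to 6 (triangles) marked apart and the mean of 6 with 1 SD. The 2 rRNAs lie higher in the EPS groups than at Rest, *mt-Nd1* lies lower at EPS 3h than at Rest with both LNAs, and *mt-Co2*, *mt-Co3* and *mt-Atp6* stay at or below 8.12 CPM.

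The first question was what stimulation did to the mitochondrial transcripts of control myotubes. Directly after EPS, both rRNAs were higher than at Rest and no mRNA passed the test. *mt-Rnr1* ranged from 291 to 558 CPM at Rest (median 371) and from 615 to 1483 CPM at EPS 0h (median 896). *mt-Rnr2* ranged from 861 to 1983 CPM (median 1066) and from 2161 to 5494 CPM (median 3563). All 6 stimulated libraries lay above all 6 Rest libraries for both rRNAs. The log2 fold change was 1.24 for *mt-Rnr1* (SE 0.27, edgeR FDR 0.000394) and 1.48 for *mt-Rnr2* (SE 0.31, FDR 0.000291), that is 2.36-fold and 2.79-fold. The members called higher were thus 2 of 10, where 20.5% of all 13995 genes were called higher and 18.4% lower (FDR below 0.05). Libraries of the groups did not overlap for 11.8% of genes in the higher and 10.1% in the lower direction.

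The 8 mRNAs had log2 fold changes between -0.19 (*mt-Nd1*) and 0.36 (*mt-Nd4*) at EPS 0h, with a median of 0.16 against -0.03 over all genes. *mt-Co1*, the most abundant, went from 4160 to 9353 CPM at Rest (median 5619) to 5730 to 8768 CPM at EPS 0h (median 8623), with overlapping groups and a log2 fold change of 0.33 (SE 0.20, FDR 0.194). None was called by edgeR in either direction, and none at an unadjusted p under 0.05. DESeq2 and limma-voom also called 2 members higher and 0 lower.

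After 3 h of recovery the rRNAs were still higher than at Rest in control myotubes, and 3 mRNAs were lower, the complex I subunits *mt-Nd1* and *mt-Nd5* and cytochrome b. *mt-Rnr1* ranged from 510 to 1490 CPM (median 1047) and *mt-Rnr2* from 1207 to 4310 CPM (median 2660). For both rRNAs, 1 of the 6 libraries, replicate 3, lay within the Rest range and the other 5 above it. The log2 fold changes were 1.33 (SE 0.27, FDR 9.14e-05) and 1.08 (SE 0.31, FDR 0.00376), and without that library they were 1.47 and 1.24. Over all genes, 26.1% were called higher and 25.9% lower in this comparison, so that the members' 2 of 10 higher and 3 of 10 lower were near those shares.

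*mt-Nd1* changed most among the mRNAs. It ranged from 934 to 1680 CPM at Rest (median 1072) and from 433 to 821 CPM at EPS 3h (median 544). No library of EPS 3h reached the Rest range, which 13.8% of all genes also showed (15.2% lay wholly above it), and the log2 fold change was -1.04 (SE 0.25, FDR 0.000625). *mt-Nd5* went from 944 to 1391 CPM (median 1160) to 458 to 1027 CPM (median 611). All but 1 of its EPS 3h libraries lay under the Rest range, and the log2 fold change was -0.82 (SE 0.28, FDR 0.0139). *mt-Cytb* went from 1673 to 2793 CPM (median 2054) to 1299 to 1963 CPM (median 1594), with overlapping groups. Its log2 fold change of -0.43 (SE 0.18, FDR 0.0465) did not pass with limma-voom (FDR 0.0537) or in 7 of 12 fits without 1 library, those without EPS 3h replicate 3, 4, 5 or 6 or Rest replicate 3, 4 or 5, where the FDR was 0.0604 to 0.125.

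The other 5 mRNAs did not pass at EPS 3h in control myotubes. *mt-Co2* had a log2 fold change of -0.47 (FDR 0.124) and *mt-Co3* of -0.44 (FDR 0.0976). *mt-Nd4* was at -0.03, *mt-Co1* at 0.04 and *mt-Atp6* at 0.05, and the last 2 were negative, -0.12 and -0.11, when libraries were scaled by their size only. That scaling shifts the median of all genes by -0.17 at EPS 3h with either LNA, and with it 5 members were lower and 2 higher in control myotubes. With the replicate number as a block, *mt-Co2* passed as well (-0.53, FDR 0.0109).

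In *Tug1* KD myotubes the rRNAs were likewise higher after EPS. *mt-Rnr1* ranged from 253 to 582 CPM at Rest (median 426), from 384 to 1060 CPM at EPS 0h (median 724) and from 519 to 1485 CPM at EPS 3h (median 931). *mt-Rnr2* ranged from 860 to 1899 CPM, from 1452 to 5261 CPM and from 1308 to 4474 CPM in the same order (medians 1268, 3372 and 2701). The lowest stimulated libraries lay within the Rest range for both genes at both time points. At EPS 0h the log2 fold change was 0.74 for *mt-Rnr1* (SE 0.27, FDR 0.0232) and 1.26 for *mt-Rnr2* (SE 0.31, FDR 0.00133). At EPS 3h the values were 1.09 (SE 0.27, FDR 0.000891) and 0.95 (SE 0.31, FDR 0.0104). The background of calls over all genes directly after EPS was 24.4% higher and 21.2% lower, and after recovery it was 26.2% and 25.9%. Without overlap, 13.0% were higher and 9.52% lower directly after EPS.

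Of these 4 rises, that of *mt-Rnr1* at EPS 0h was not called without a filter on low counts (FDR 0.0958), nor without EPS 0h replicate 2 or 3 or Rest replicate 6 of *Tug1* KD (FDR 0.0564 to 0.0802). That of *mt-Rnr2* at EPS 3h was not called without the filter (FDR 0.0612).

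Of the mRNAs of *Tug1* KD myotubes, 1 fell directly after EPS and 3 after recovery. *mt-Nd1* ranged from 996 to 2000 CPM at Rest (median 1492), from 515 to 1337 CPM at EPS 0h (median 840) and from 299 to 798 CPM at EPS 3h (median 572). It overlapped the Rest libraries at EPS 0h (log2 fold change -0.73, SE 0.25, FDR 0.0163) and did not at EPS 3h (-1.42, SE 0.25, FDR 1.18e-05), where 14% of all genes were lower and 15.9% higher without overlap. *mt-Nd5* went from 930 to 2346 CPM at Rest (median 1372) to 430 to 1154 CPM at EPS 3h (median 706). The groups overlapped, and the log2 fold change was -1.01 (SE 0.28, FDR 0.00281). At EPS 0h its value of -0.48 (FDR 0.155) passed only with a block, the replicate number (-0.57, FDR 0.0237) or the replicate set (-0.58, FDR 0.0173).

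*mt-Cytb* went from 1921 to 3468 CPM (median 2491) to 1084 to 2366 CPM (median 1738) at EPS 3h, with overlapping groups and a log2 fold change of -0.61 (SE 0.18, FDR 0.0052). The other 5 mRNAs had log2 fold changes between -0.52 (*mt-Co3*, FDR 0.0512) and -0.18 (*mt-Co1*, FDR 0.478) at EPS 3h. Scaling by library size only gave 6 members lower and 2 higher there, with *mt-Nd4*, *mt-Co2* and *mt-Co3* added. *mt-Co2* and *mt-Co3* also passed with a block, at -0.52 (FDR 0.0153) and -0.53 (FDR 0.0352) with the replicate set and at -0.51 (FDR 0.0134) and -0.51 (FDR 0.04) with the replicate number, which does not pair these libraries. The EPS 0h and EPS 3h comparisons with 1 LNA share their Rest libraries, so their values are not independent.

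**Figure D3:**
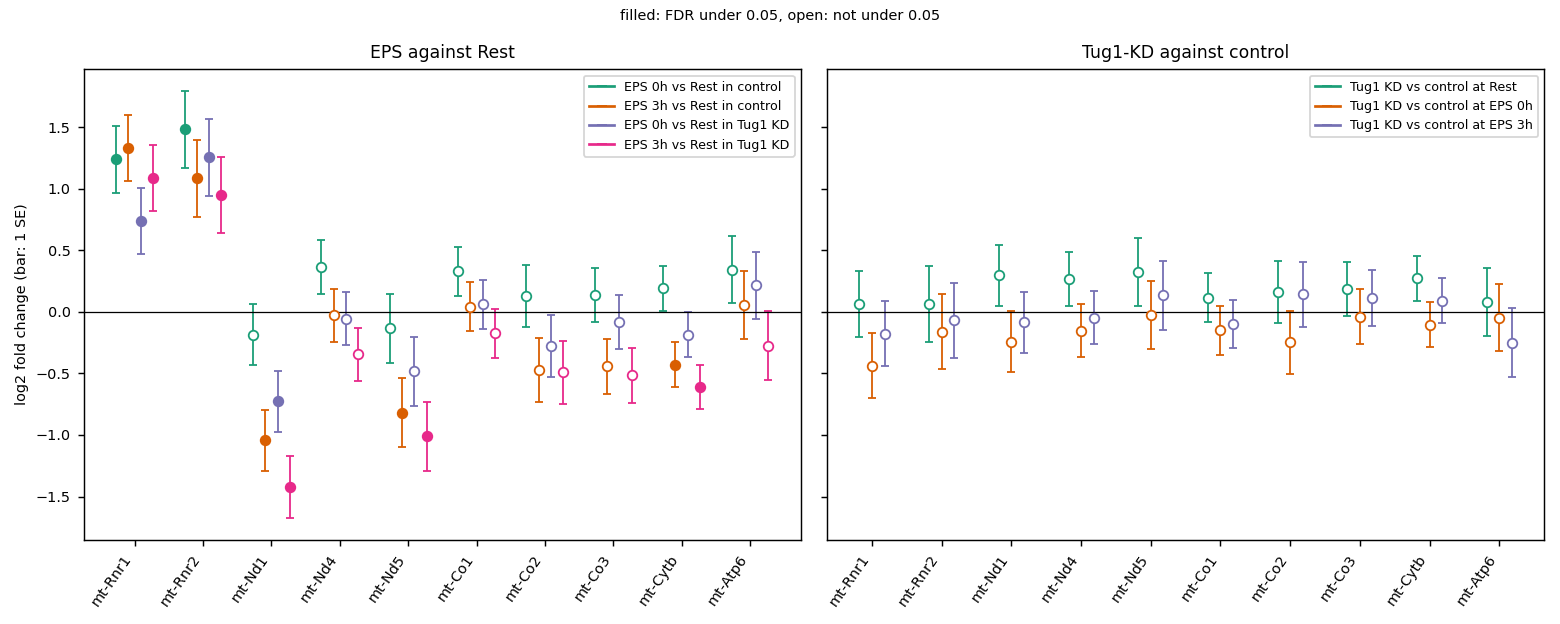
log2 fold changes of the 10 genes with 1 SE, for EPS against Rest with each LNA and for *Tug1* KD against control in each condition, where filled points passed an FDR of 0.05. The rRNAs lie between 0.74 and 1.48 in the 4 EPS comparisons, *mt-Nd1* falls to -1.42 at EPS 3h in *Tug1* KD myotubes, and all points for *Tug1* KD are open.

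The second question was whether loss of *Tug1* changed these transcripts. No member was called in any of the 3 conditions by edgeR, DESeq2 or limma-voom, and none had an unadjusted edgeR p under 0.05. Calls over all genes were 5.54% higher and 4.47% lower in the Rest condition. They were 8.25% and 6.07% directly after EPS and 6.38% and 5.11% after recovery. At Rest all 10 log2 fold changes were positive, from 0.06 (*mt-Rnr1*) to 0.32 (*mt-Nd5*), with a median of 0.17 against -0.03 over all genes. They were all positive in replicates 1 to 3, and 8 of 10 were negative in replicates 4 to 6 (*mt-Rnr2* at -0.29 the lowest). At EPS 0h all 10 were negative, from -0.44 (*mt-Rnr1*, SE 0.27, FDR 0.31) to -0.02 (*mt-Nd5*). At EPS 3h they ran from -0.25 (*mt-Atp6*) to 0.14 (*mt-Co2*). The groups overlapped for all 10 genes in each condition. Of all genes, 4.34% were higher and 3.73% lower without overlap at Rest, 4.83% and 3.11% directly after EPS, and 2.68% and 1.94% after recovery. With SEs between 0.18 and 0.31, no difference passed, which does not show that the levels were alike.

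At EPS 0h the replicate numbers were taken from the data, not the labels, as pairs of the 2 LNAs. Both rRNAs are therefore also given by pair. *mt-Rnr1* was 1483 CPM in control and 581 in *Tug1* KD replicate 1, 1294 and 1060 in replicate 2, and 920 and 908 in replicate 3. In replicates 4, 5 and 6 it was 615 and 509, 872 and 866, and 646 and 384. The *Tug1* KD library was the lower in 6 of 6 pairs for *mt-Rnr1*, by little in replicates 3 and 5. *mt-Rnr2* was lower with *Tug1* KD in replicates 1, 4 and 6 (control first, 5494 and 3153, 2161 and 2063, 2413 and 1452 CPM). It was higher with *Tug1* KD in replicates 2, 3 and 5 (4775 and 5261, 3753 and 4141, 3373 and 3591 CPM). With the replicate block the log2 fold change of *mt-Rnr1* was -0.44 (edgeR FDR 0.130), and no member passed.

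Whether EPS acted differently with *Tug1* KD was tested as an interaction. All 10 interaction terms were negative at both time points. Directly after EPS they ran from -0.54 (*mt-Nd1*, SE 0.35) to -0.13 (*mt-Atp6*, SE 0.38), and after recovery from -0.38 (*mt-Nd1*, SE 0.35) to -0.02 (*mt-Co2*, SE 0.37), where *mt-Co2* turned positive with either block or limma-voom. All had an FDR of 1.00, none had an unadjusted p under 0.05, and DESeq2 and limma-voom called none. Of all genes, 0.0% were called directly after EPS and 0.00715% after recovery. The 10 terms are not independent, since they rest on the same libraries and normalization.

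The rRNAs and mRNAs were then set against each other within each library, which cancels depth and scaling. The log2 ratio of the summed rRNA counts to the summed counts of the 8 mRNAs is given as a description, with no test. It was -2.79 ± 0.27 in Rest control and -2.92 ± 0.22 in Rest *Tug1* KD myotubes (SD, n = 6 each). At EPS 0h it was -1.62 ± 0.32 in control and -1.71 ± 0.34 in *Tug1* KD myotubes, and at EPS 3h -1.50 ± 0.43 and -1.54 ± 0.30. In plain counts, 14.6 rRNA counts fell on 100 mRNA counts in Rest control libraries, 33.3 in EPS 0h control and 36.7 in EPS 3h control libraries. With *Tug1* KD the numbers were 13.4, 31.3 and 35.1.

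All 12 Rest libraries, between -3.27 and -2.52, lay below all 24 EPS libraries, between -2.27 and -1.07. The same must then be so within each set. The highest Rest and lowest EPS library were -2.52 and -2.24 in replicates 1 to 3, and -2.66 and -2.27 in replicates 4 to 6. The difference of the means was 1.27 in either set. *mt-Rnr2* alone over the mRNAs also separated the libraries, at up to -2.95 at Rest and at least -2.74 after EPS. *mt-Rnr1* alone did not, since its highest Rest library stood at -4.46 and its lowest EPS library at -4.52. The sum of the mRNA counts is mostly *mt-Co1* and *mt-Cytb*, and with geometric means, which weight the genes equally, the groups also stayed apart.

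The 2 rRNAs did not move in a fixed proportion. The ratio of *mt-Rnr2* to *mt-Rnr1* counts was 3.11 ± 0.34 in Rest control, 3.76 ± 0.19 in EPS 0h control and 2.64 ± 0.21 in EPS 3h control myotubes (SD, n = 6 each). With *Tug1* KD it was 3.19 ± 0.28, 4.49 ± 0.62 and 2.85 ± 0.35. At EPS 0h it was higher with *Tug1* KD in 6 of 6 same-numbered pairs, from 3.78 against 3.73 in replicate 6 to 5.42 against 3.70 in replicate 1. The lowest EPS 0h library of either LNA, at 3.51, lay above the highest EPS 3h library, at 3.40. Rest libraries lay between 2.85 and 3.59 and overlapped both. The ratio was chosen after the values of both genes were seen and was not tested.

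**Figure D4:**
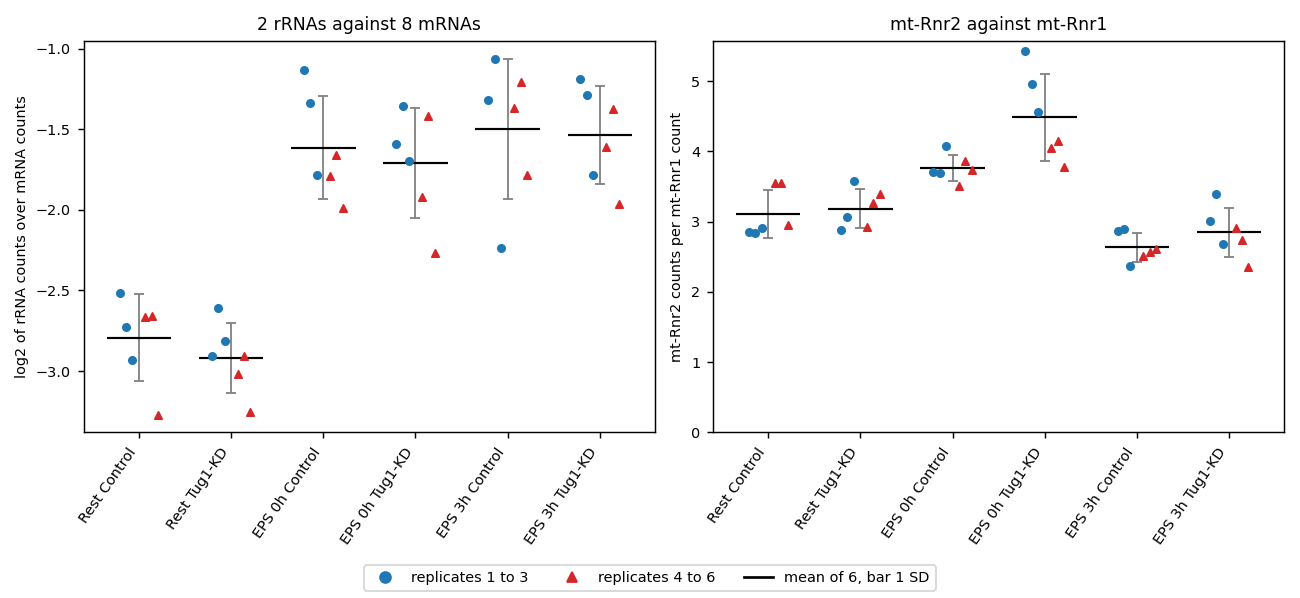
Left, log2 of the summed rRNA counts over the summed counts of 8 mRNAs in each library by group; right, *mt-Rnr2* counts per *mt-Rnr1* count, with a point per library and the mean of 6 with 1 SD. The 12 Rest libraries all lie below the 24 EPS libraries on the left, and the EPS 0h libraries lie above the EPS 3h libraries on the right.

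The levels of replicates 1 to 3 and 4 to 6 are set side by side here, with no test. In Rest control myotubes the mean of replicates 4 to 6 was the higher for all 10 genes, by 0.03 (*mt-Co2*) to 0.87 (*mt-Co1*) on the log2 scale. In the EPS 0h groups of both LNAs it was the lower for all 10. In Rest control myotubes *mt-Co1* ranged from 4160 to 4875 CPM in replicates 1 to 3 and from 6363 to 9353 CPM in replicates 4 to 6, without overlap, while at EPS 0h the ranges were 8637 to 8768 and 5730 to 8610 CPM.

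The EPS responses were therefore also estimated within each set, with 3 libraries against 3. In replicates 1 to 3 of control myotubes at EPS 0h, *mt-Rnr1* rose by 1.79 (SE 0.35, FDR 0.000137) and *mt-Rnr2* by 2.19 (SE 0.39, FDR 4.79e-05) on the log2 scale. Of the mRNAs, 5 rose as well, *mt-Co1* by 0.96, *mt-Nd4* by 0.92, *mt-Atp6* by 0.84, *mt-Co3* by 0.79 and *mt-Cytb* by 0.64. In replicates 4 to 6 the rRNAs did not pass (0.61, FDR 0.192 and 0.73, FDR 0.154), and *mt-Nd1* (-0.77, FDR 0.00773) and *mt-Nd5* (-0.79, FDR 0.0132) were lower. All 8 mRNAs had a positive log2 fold change in the first set and a negative one in the second. Of all genes, 22.6% were called higher and 22.6% lower in the first set, and 15.2% higher and 12.3% lower in the second.

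At EPS 3h in control myotubes, *mt-Rnr1* passed in both sets, at 1.59 (FDR 0.00028) and 1.09 (FDR 0.00938). *mt-Rnr2* passed in replicates 1 to 3 (1.56, FDR 0.00101) and not in replicates 4 to 6 (0.67, FDR 0.144). *mt-Nd1* was lower in both sets, at -0.54 (FDR 0.0345) and -1.55 (FDR 1.01e-06). In replicates 1 to 3, *mt-Co1* was higher (0.55, FDR 0.0328), and in replicates 4 to 6, *mt-Nd5*, *mt-Co2*, *mt-Co3* and *mt-Cytb* were lower with *mt-Nd1*, between -1.13 (*mt-Nd5*) and -0.78 (*mt-Cytb*). The background was 25.9% higher and 26.9% lower in the first set and 24.4% and 22.1% in the second.

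In *Tug1* KD myotubes both rRNAs passed in replicates 1 to 3 at both time points, with log2 fold changes of 0.92 to 1.55, and neither passed in replicates 4 to 6, where they were 0.51 to 0.85. The called members of the first set were 2 of 10 higher and 0 lower at EPS 0h (background 28.6% and 29.1%), and 2 higher and 2 lower, *mt-Nd1* and *mt-Nd5*, at EPS 3h (background 27.7% and 29.5%). In the second set, *mt-Nd1* (-1.20), *mt-Nd5* (-1.06) and *mt-Cytb* (-0.47) were lower at EPS 0h (background 15% higher and 11.5% lower). At EPS 3h all 8 mRNAs were lower there, from -1.89 (*mt-Nd1*) to -0.56 (*mt-Co1*), where 20.7% of all genes were and 21.2% were higher.

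The difference between the sets was tested for each EPS response. All 10 differences were negative in each of the 4 comparisons, and none passed, with the lowest FDR, 0.0747, for *mt-Nd5* at EPS 0h in *Tug1* KD myotubes (difference -0.94, SE 0.34). At EPS 0h in control myotubes they ran from -1.47 (*mt-Rnr2*) to -0.85 (*mt-Co2*). Their unadjusted edgeR p there was 0.000738 (*mt-Co1*) to 0.0193 (*mt-Rnr1*), and their FDR 0.102 to 0.253. The unadjusted edgeR p reached 0.302 at EPS 3h in control myotubes, and 0.389 at EPS 0h and 0.303 at EPS 3h with *Tug1* KD. Of all genes, 0.0786% were called in control myotubes directly after EPS and 0.336% after recovery, and 6.46% and 0.00715% with *Tug1* KD. For *Tug1* KD at Rest, *mt-Nd1* was higher in replicates 1 to 3 (0.66, FDR 0.0491) and at -0.03 in replicates 4 to 6, where no member was called. Of all genes, 4.43% were called higher and 4.42% lower in the first set, 8.48% and 6.14% in the second, and 0.0% for their difference. The difference of the sets was not called for it either (FDR 0.246).

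**Figure D5:**
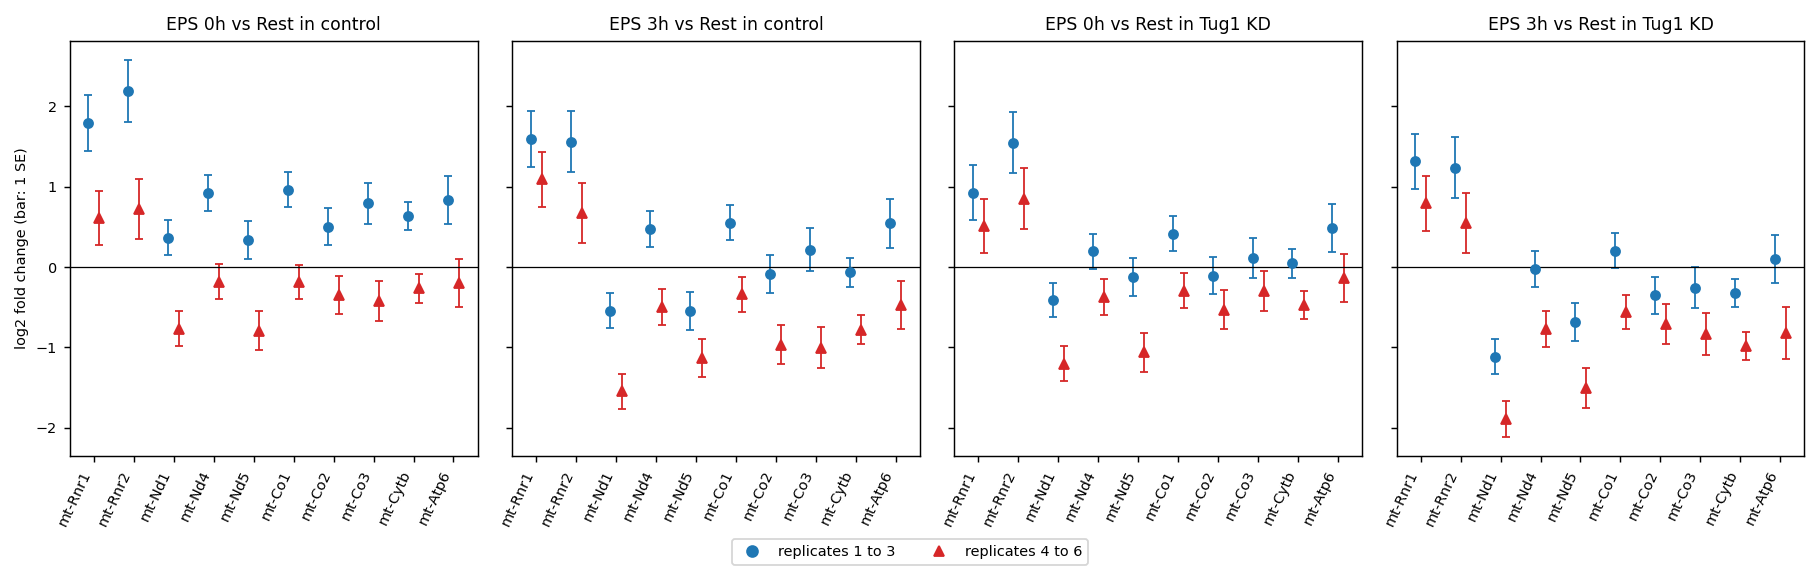
log2 fold changes of EPS against Rest with 1 SE, estimated within replicates 1 to 3 and within replicates 4 to 6. The rRNAs lie above 0 in both sets in all 4 comparisons, and the points of replicates 4 to 6 lie below those of replicates 1 to 3 for all 10 genes in each.

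The table holds 27 further mtDNA genes, of which 3 passed the filter. *mt-Nd2*, a complex I subunit between *mt-Nd1* and *mt-Co1*, fell from 947 ± 232 CPM at Rest to 518 ± 240 at EPS 3h in *Tug1* KD myotubes (log2 fold change -0.87, FDR 0.0187) and went from 716 ± 201 to 485 ± 215 in control myotubes (-0.56, FDR 0.129). *mt-Nd6*, the only protein gene of the minus strand, fell from 330 ± 146 to 118 ± 71.7 CPM with *Tug1* KD (-1.49, FDR 0.017) and went from 208 ± 88.0 to 107 ± 81.3 in control myotubes (-0.96, FDR 0.118). The tRNA *mt-Tp* was higher at EPS 0h in control myotubes (26.8 ± 12.5 to 41.2 ± 4.99 CPM, 0.62, FDR 0.0395). None of the 3 passed in a *Tug1* KD comparison or an interaction. Of the protein genes under the filter, *mt-Nd3*, *mt-Nd4l* and *mt-Atp8* had at most 13, 6 and 2 counts in a library, and 1.51%, 0% and 0% of their 150-base stretches were without a nuclear copy.

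Nuclear genes that serve the mtDNA and its RNA were counted by function, as a description, beside the shares of all genes called in the same comparisons. In control myotubes these were 20.5% higher and 18.4% lower directly after EPS and 26.1% and 25.9% after recovery, and with *Tug1* KD 24.4% and 21.2%, then 26.2% and 25.9%. Of 18 genes of mtDNA transcription and replication, 1 rose and 8 fell in control myotubes directly after EPS and 3 rose and 13 fell after recovery, with a median log2 fold change of -0.44 after recovery against -0.02 over all genes. *Polrmt*, the mitochondrial RNA polymerase, fell by 0.35 and *Polg*, the mtDNA polymerase, by 0.57 on the log2 scale at EPS 0h. *Mterf1a* (-1.14) and *Mterf1b* (-1.13), transcription termination factors that bind just downstream of *mt-Rnr2*, were lowest at EPS 3h, and *Mgme1*, a mitochondrial exonuclease (0.85), and *Tfb2m*, a transcription initiation factor (0.46), were highest. With *Tug1* KD the counts were 2 up and 10 down, then 3 up and 10 down. Between the LNAs only *Polrmt* (-0.32) and *Primpol* (0.47) differed, at EPS 3h, where 6.38% of all genes were higher and 5.11% lower.

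Of 18 tested genes for processing, polyadenylation and decay of mitochondrial RNA, 6 rose and 2 fell at both time points in control myotubes, where 20.5% and then 26.1% of all genes were called higher and 18.4% and then 25.9% lower. *Fastkd2*, which binds *mt-Rnr2*, rose by 0.77 and 1.08, and *Trmt10c*, a part of the enzyme that cuts precursors at the 5′ end of tRNAs, rose by 0.72 and 1.03. With *Tug1* KD, 7 rose and 3 fell at EPS 0h, and 6 rose and 4 fell at EPS 3h. The median in control myotubes was 0.13, then 0.08. *Tug1* KD against control changed 1 of them at Rest (*Fastkd3*, -0.32) and 3 at EPS 3h, all lower (*Trmt10c*, *Pde12* and *Grsf1*). Of all genes, 4.47% were lower at Rest and 5.11% at EPS 3h in these comparisons. Of 19 genes for rRNA modification and ribosome assembly, 2 rose and 5 fell in control myotubes directly after EPS and 1 rose and 10 fell after recovery (median -0.33), beside the same shares of all genes. The helicase *Ddx28* was at -0.81 and -1.22 and the GTPase *Gtpbp10* at 0.66 and 0.92. With *Tug1* KD, 2 rose and 6 fell, then 1 rose and 11 fell. Against control, 0, 2 and 3 of the 19 differed at Rest, EPS 0h and EPS 3h.

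Proteins that assemble with the mtDNA products were counted in the same way. Of 80 nuclear-encoded subunits of the respiratory chain and ATP synthase, 1 rose and 6 fell in control myotubes directly after EPS and 1 rose and 2 fell after recovery, with 1 up and 21 down, then 1 up and 2 down, with *Tug1* KD. The 21 of 80 lower stand beside 21.2% of all genes, and the 2 of 80 lower after recovery beside 25.9% with either LNA. *Ndufab1* (0.55 to 0.61) was the one that rose in each. Of 77 mitochondrial ribosomal proteins, 2 rose and 3 fell, then 5 rose and 7 fell, in control myotubes, and 4 rose and 20 fell, then 6 rose and 20 fell, with *Tug1* KD, where 21.2% and then 25.9% of all genes were lower. *Mrps2* rose by 0.57 and 0.65 in control myotubes. *Tug1* KD against control changed at most 2 of the 80 subunits (*Cox7a1*, -1.04 at Rest, and *Cox8b*, -0.85 at EPS 0h, among them) and at most 3 of the 77 ribosomal proteins in a condition. No gene of the 5 lists was called for an interaction. The lists were chosen with earlier results of these data known.

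Among nuclear genes, those whose log2 CPM followed the mean of the 2 rRNAs most closely over the 36 libraries were *Tsg101* (Pearson r 0.90), *Dnajc3* (0.89), *Ap3s1* (0.89), *Cript* (0.89) and *Nampt* (0.88). After centring within group and replicate set, r was between 0.66 (*Nampt*) and 0.88 (*Cript*). The genes most like the mean of the 8 mRNAs were *Lyrm4* (0.85), *Zfp960* (0.83), *Rnase4* (0.82), *Gm7072* (0.81) and *Me2* (0.81), with 0.49 (*Zfp960*) to 0.78 after centring. The libraries share their groups, sets and normalization, and the values describe likeness only.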

How the data were processed

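Poly-A selected, stranded libraries were sequenced as 150-bp pairs. The authors trimmed reads with fastp 0.14.1, checked them with FastQC 0.11.7, aligned them with STAR 2.5 to GRCm39 and deposited raw counts per gene. The counting mode, its strand setting and the treatment of reads with several matches are not given in the sources used here. Spike-in reads were not analysed here. Groups and replicate numbers came from the sample titles, and no library was left out. Genes with an identifier and no name (1492, 0.0327% of counts) stayed in.

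Genes that reached 1 RPM in 12 or more of 36 libraries were tested with edgeR 4.0.16 (R 4.3.3), TMM and robust quasi-likelihood F tests on all 6 groups, with Benjamini-Hochberg adjustment over 13995 genes and a threshold of 0.05. SE is the log2 fold change over the square root of F. Within-set effects came from a model of 12 cells. The script was tested on simulated data. The alternatives were DESeq2 1.42.0, limma-voom (limma 3.58.1), other scaling, no filter, blocks and leaving out libraries.

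Libraries of a group differed by more than counting error (chi-square per degree of freedom at least 4.42). Same-numbered libraries correlated above 0.1 in every pair, after centring, in 5 of 7 comparisons, not in *Tug1* KD at Rest (lowest -0.07) or EPS 3h with *Tug1* KD (lowest 0.07). The numbers were taken as pairs from the data in those 5, since the labels do not state pairs. The main fit used the groups only and no pairs. There, libraries correlated best with their own number in 2 of 6 (*Tug1* KD against control at EPS 3h) to 6 of 6 pairs (at EPS 0h). In *Tug1* KD at Rest, not taken as paired, it was 3 of 6. Nuclear matches were found with blastn 2.17.0 (at least 100 bases, 95% identity) on the GRCm39 reference. All 10 genes, 5 lists of nuclear genes, *Tug1*, the other mtDNA genes and the 5 nuclear genes most like the rRNAs and the mRNAs were named by rule. The genes and lists were chosen with earlier results of these data known.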

Additional observations from a re-analysis of the deposited data

How the results depend on the processing

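All 90 log2 fold changes of the 10 genes kept their direction and call with DESeq2 and with scaling on genes outside mtDNA. Of the 15 called ones, 13 held without a filter, 14 with limma-voom and 15 with either block or library size only. With the replicate block, 2 members were lower directly after EPS and 5 after recovery in *Tug1* KD myotubes, and no call was lost. The same held with the set block, replicates 1 to 3 against 4 to 6. The numbers do not pair the EPS 3h libraries of *Tug1* KD, where only 1 of 6 correlated best with its own number. Counts also moved at EPS 3h to 5 (control) and 6 (*Tug1* KD) lower with library size only, and without a filter to 5 lower and 1 higher (*Tug1* KD) and, at EPS 0h, to 1 higher. The causes were not tested.

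Reversals touched uncalled values only. At EPS 3h in control, *mt-Atp6* was at -0.0024 (set block), -0.003 (replicate block), -0.11 (library size only), -0.026 (limma-voom) and -0.048 (no filter). In the same comparison, *mt-Co1* was at -0.12 (library size only) and -0.053 (no filter). *mt-Co1* at EPS 0h in *Tug1* KD was at -0.027 (library size only) and -0.0095 (no filter). The *mt-Co2* interaction at EPS 3h was 0.023 (set block), 0.021 (replicate block) and 0.048 (limma-voom).

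Leaving out 1 library gave these ranges. For *Tug1* KD at Rest, *mt-Rnr2* ran from -0.050 to 0.22, *mt-Rnr1* from -0.044 to 0.18, *mt-Co1* from -0.035 to 0.26 and *mt-Atp6* from -0.065 to 0.20. For *Tug1* KD directly after EPS, *mt-Nd5* ran from -0.205 to 0.13, *mt-Co3* from -0.15 to 0.047 and *mt-Atp6* from -0.16 to 0.071. After recovery, *mt-Rnr2* ran from -0.28 to 0.098, *mt-Nd1* from -0.21 to 0.046, *mt-Nd4* from -0.21 to 0.083, *mt-Nd5* from -0.046 to 0.30 and *mt-Cytb* from -0.021 to 0.19. For EPS 0h in control, *mt-Co2* ran from -0.015 to 0.23 and *mt-Nd5* from -0.29 to 0.0003. For EPS 3h in control, *mt-Atp6* ran from -0.16 to 0.16, *mt-Co1* from -0.055 to 0.18 and *mt-Nd4* from -0.16 to 0.083. For EPS 0h in *Tug1* KD, members higher ran from 1 to 2, *mt-Co1* from -0.027 to 0.21, *mt-Nd4* from -0.18 to 0.031 and *mt-Co3* from -0.21 to 0.020. Interactions ran from -0.25 to 0.018 for *mt-Atp6* at EPS 0h, and at EPS 3h from -0.14 to 0.13 for *mt-Co2*, -0.35 to 0.033 for *mt-Rnr2* and -0.23 to 0.059 for *mt-Co3*. *mt-Co3* passed at EPS 3h in 3 such fits with *Tug1* KD and 1 in control.

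The rRNA to mRNA log2 ratio with geometric means was 2.05, 3.26 and 3.63 in Rest, EPS 0h and EPS 3h control and 1.93, 3.07 and 3.51 with *Tug1* KD. With *mt-Rnr1* alone it was -4.83, -3.87 and -3.36, then -4.98, -4.16 and -3.48. With *mt-Rnr2* alone it was -3.20, -1.96 and -1.96 in control, and -3.31 at Rest and -1.97 at EPS 3h with *Tug1* KD.

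*mt-Co2*, *mt-Co3* and *mt-Atp6* rest on few counts. Their SEs for *Tug1* KD at Rest (0.25, 0.22 and 0.27) lay within those of the other 7 genes (0.18 to 0.31). An SE does not show whether the counts come from mtDNA or from its nuclear copy, which was not tested.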

Other observations

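The 10 genes did not vary as 1 block over the 36 libraries. The log2 CPM of the 2 rRNAs correlated with each other at a Pearson r of 0.93, and the 28 pairs of mRNAs at 0.48 to 0.92 (median 0.75). The 16 pairs of 1 rRNA and 1 mRNA ran from -0.14 to 0.66 (median 0.30). After centring within group and replicate set, the last median was 0.77, close to the 0.71 of the mRNA pairs, and the rRNA pair stood at 0.98. These values describe libraries that share groups and normalization.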
